A study of Mus musculus with 13 samples.

Results

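The 39 genes described here repair DNA by homologous recombination or by the Fanconi anaemia pathway, and they come from a list of gene names that was drawn up with earlier results of these data known. Of the 39, 35 had a probe set that is annotated with their symbol alone, among 22180 genes measured that way. Fanca and Rad54b were represented only by probe sets shared between genes, and no probe set of 1 symbol was found for Xrcc2 and Rbbp8, so these 4 carry no value. RNA came from CD205+CD8+ dendritic cells sorted from spleens of C57Bl/6 littermates, labelled male, and was hybridised to 13 whole-transcript arrays. Every mouse carried a subcutaneous graft of 5000000 B16 melanoma cells that secrete Flt3L, which makes dendritic cells more numerous, given at 6 weeks of age. After 5 days the mice received 100 ul of PBS into the peritoneum, either with 50 ug of muramyl dipeptide (MDP), the bacterial cell wall fragment sensed by NOD2, or without it. At 24 h the spleens were digested with collagenase D and the cells were sorted by surface CD103, the integrin chain encoded by Itgae. The CD103 high gate gave 3 arrays from MDP and 3 from PBS mice, and the CD103 low gate gave 3 arrays from MDP and 4 from PBS mice.

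Homologous recombination mends DNA breaks by copying the sister chromatid, which exists only once a cell has replicated its DNA. Broken ends are trimmed to single strands, which are coated with protein and then invade the matching sequence. The Fanconi pathway clears crosslinks that block replication forks: a core complex attaches ubiquitin to the FANCD2 and FANCI pair, and nucleases and recombination then finish the repair. Dendritic cells are short-lived and are renewed from precursors that divide, and Flt3L is known to drive that renewal.

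Levels are RMA log2 values of 1 probe set per gene and differences are log2 differences, so levels of different genes are not set against each other. All 35 genes had a mean level over all arrays above the 95th percentile of 1105 olfactory receptor genes (5.12), which served as a measure of background. Fancb (5.15) passed that mark only through the MDP CD103 high arrays, where it averaged 5.75. It averaged 4.90 in PBS CD103 high, 4.87 in MDP CD103 low and 5.11 in PBS CD103 low arrays, all below the mark. Array medians lay between 5.00 and 5.13. Although all mice are labelled male, 7 arrays had high Xist (10.98 to 11.21) with low Y-linked transcripts and 6 had low Xist (4.47 to 6.69). High Xist was found in 2 of 3 MDP CD103 high, 2 of 3 PBS CD103 high, 1 of 3 MDP CD103 low and 2 of 4 PBS CD103 low arrays. All 13 cDC1 markers measured were above background, among them Cd8a, Ly75 and Itgae themselves. Markers of other cells were above background too, with 7 of 8 for plasmacytoid dendritic cells, 6 of 7 for monocytes and macrophages and 5 of 8 for cDC2. The count was 3 of 8 for natural killer cells, 3 of 7 for B16 melanoma, 2 of 7 each for B cells and T cells, 1 of 8 for neutrophils and 0 of 3 for erythroid cells. Itgae, which encodes the marker of the sort, averaged 11.35 ± 0.21 in MDP CD103 high and 10.15 ± 0.08 in PBS CD103 high arrays (SD, n = 3 each), a difference of 1.198 ± 0.250 (SE, adjusted p = 0.029 in limma). It averaged 10.13 ± 0.52 in MDP CD103 low (n = 3) and 7.92 ± 0.41 in PBS CD103 low arrays (n = 4), a difference of 2.21 ± 0.23 (adjusted p = 0.00838 in limma), so the MDP CD103 low mean was close to that of PBS CD103 high. The labels do not say whether arrays are separate mice, although each group held arrays of both Xist classes. The p-values therefore cover the spread between arrays, which may be technical in part. Because cells were sorted on CD103 after MDP, the cells in a gate may differ between treatments, and fewer cells of a type cannot be told apart from less RNA per cell.

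MDP CD103 high cells stood apart from the other 3 groups in the repair genes. The mean over the 35 genes was 7.21, 7.22 and 7.13 in the MDP CD103 high arrays, against 6.76, 6.59 and 6.54 in the PBS CD103 high arrays. It was 6.63, 6.78 and 6.73 in the MDP CD103 low arrays, against 6.78, 6.83, 6.81 and 6.60 in the PBS CD103 low arrays. All 3 MDP CD103 high arrays thus lay above the other 10 arrays, which overlapped one another. Gene by gene, 23 of the 35 had their 3 MDP CD103 high arrays above every other array, which held for 2.11 percent of all genes, and 0 of 35 had them below every other array (1.37 percent of all genes). The heat map of all members shows which genes took part.

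**Figure D1:**
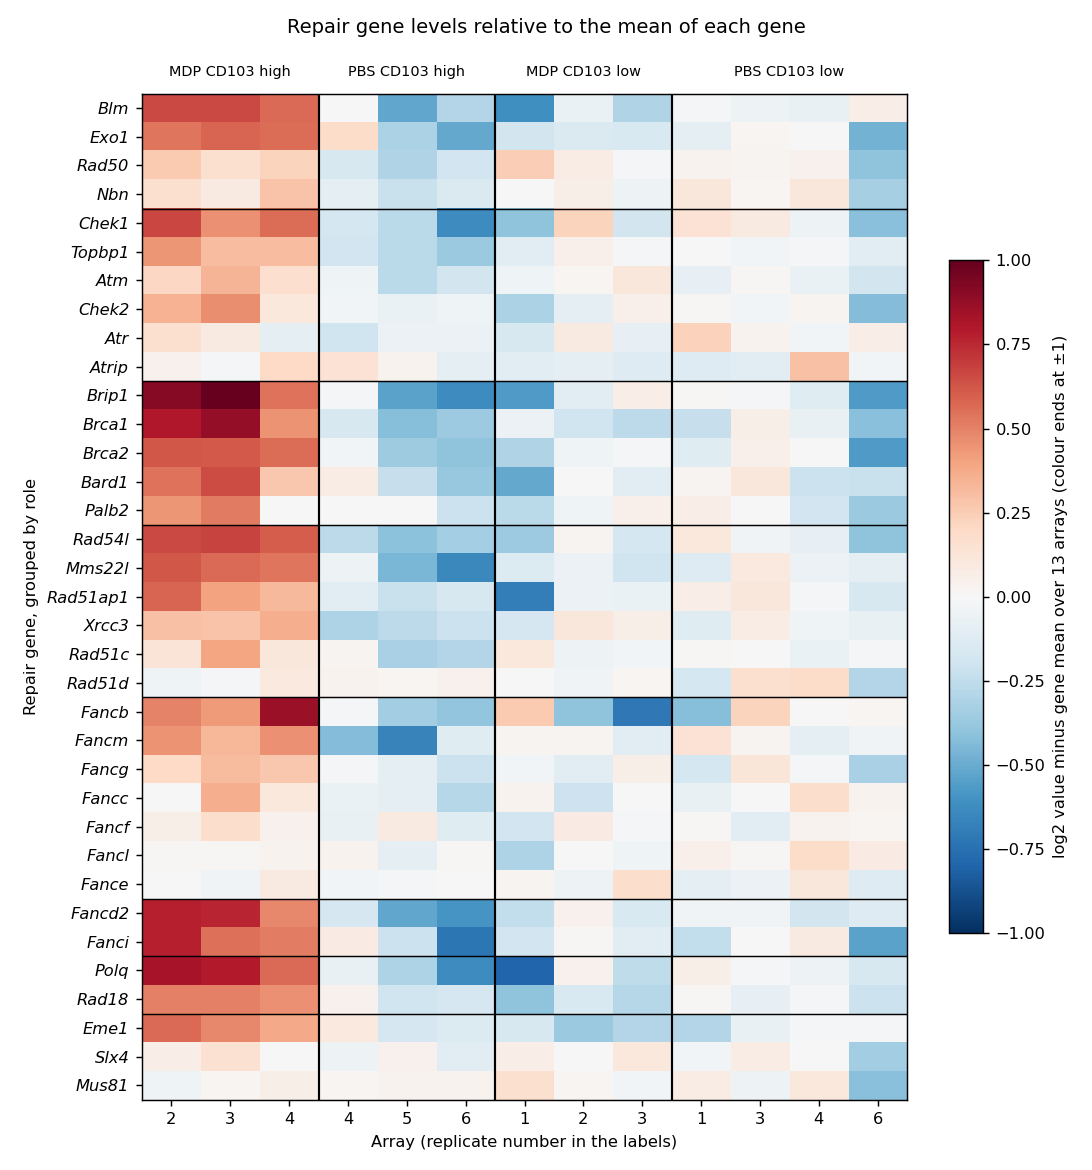
Level of each of the 35 repair genes (rows, ordered by role and divided by lines) in each of the 13 arrays (columns, by group and replicate number), as the log2 value minus the mean of that gene over all arrays. Red is above and blue below that mean, and colours end at ±1. In 23 rows all 3 MDP CD103 high columns are above every other array, while rows such as Fance and Fancl stay pale there.

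Within the CD103 high gate, MDP against PBS asks how cells found there differ a day after NOD2 stimulation. Of the 35 repair genes, 17 were higher after MDP and 0 were lower at an adjusted p under 0.05 in limma, against 1.82 percent of all genes called in either direction, 1.42 percent called higher and 0.397 percent called lower. Brip1 differed most, by 1.23 ± 0.21 (SE, n = 3 against 3, adjusted p = 0.012), a 2.34-fold difference, and Fancd2 had the smallest p (1.10 ± 0.12, adjusted p = 0.00428), a 2.14-fold difference. The median difference of the 35 was 0.57, from -0.02 for Rad51d to 1.23 for Brip1, beside a median of -0.01 over all genes, and 33 of the 35 lay above 0 against 46.3 percent of all genes. In 26 of the 35 the MDP arrays lay wholly above the PBS arrays, against 8.96 percent of all genes, and in 0 of the 35 wholly below (10 percent of all genes). By role, the genes past the threshold were 2 of 4 in break sensing and resection, 3 of 6 checkpoint genes, 3 of 5 in the BRCA group, 3 of 6 in strand exchange, 1 of 7 of the Fanconi core, 2 of 2 of the FANCD2 and FANCI pair, 2 of 2 in lesion tolerance, and 1 of 3 of the nucleases. The count of 17 was 9 without any 1 of MDP CD103 high replicates 2 and 3 and PBS CD103 high replicates 5 and 6. Over all genes 109, 124, 94 and 82 passed without these arrays, in that order. The count of members was 0, with a median of 0.37, with the replicate number as a block across treatments, and 17 with a random block within treatment. Over all genes these blocks gave 0 and 392. Correlations between same-numbered arrays across treatments were mixed (-0.24 to 0.45) and do not settle that pairing. Within the arrays with high Xist (2 against 2) the mean over members differed by 0.50, and within those with low Xist (1 against 1) by 0.67.

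Promoters of 4 of these genes are shown because they have the smallest p among the members with a promoter in the RefSeq table of build GRCm38.p6, from 250 bases before to 50 after the start of the gene, read 5′ to 3′ along the gene's strand. Capitals mark letters searched for on both strands: the E2F type (TTTCCCGC, TTTGGCGC, TTTCGCGC or TTTGCCGC), bound by the factors that switch on S phase genes, the CHR element (TTTGAA) and the CCAAT box (CCAAT). The regions are chr9:103305077-103305376 on the plus strand for Topbp1, chr4:116123641-116123940 on the minus strand for Rad54l, chr4:24496201-24496500 on the plus strand for Mms22l and chr11:101551906-101552205 on the minus strand for Brca1.
Topbp1: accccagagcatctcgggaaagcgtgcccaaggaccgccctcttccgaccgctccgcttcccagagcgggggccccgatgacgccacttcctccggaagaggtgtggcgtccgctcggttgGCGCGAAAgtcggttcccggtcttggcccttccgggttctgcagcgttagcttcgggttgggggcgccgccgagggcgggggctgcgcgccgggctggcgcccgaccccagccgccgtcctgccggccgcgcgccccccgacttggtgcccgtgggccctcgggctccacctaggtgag
Rad54l: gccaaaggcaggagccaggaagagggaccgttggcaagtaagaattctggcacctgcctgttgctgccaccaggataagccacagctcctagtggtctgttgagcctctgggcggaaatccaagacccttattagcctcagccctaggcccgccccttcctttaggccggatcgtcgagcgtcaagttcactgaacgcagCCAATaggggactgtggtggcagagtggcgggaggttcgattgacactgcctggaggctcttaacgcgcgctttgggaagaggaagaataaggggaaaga
Mms22l: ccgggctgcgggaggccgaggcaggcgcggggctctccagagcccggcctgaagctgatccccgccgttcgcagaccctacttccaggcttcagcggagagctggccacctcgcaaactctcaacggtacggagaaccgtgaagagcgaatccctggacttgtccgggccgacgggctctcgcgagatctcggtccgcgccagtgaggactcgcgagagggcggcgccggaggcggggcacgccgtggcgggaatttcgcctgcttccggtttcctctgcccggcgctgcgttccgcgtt
Brca1: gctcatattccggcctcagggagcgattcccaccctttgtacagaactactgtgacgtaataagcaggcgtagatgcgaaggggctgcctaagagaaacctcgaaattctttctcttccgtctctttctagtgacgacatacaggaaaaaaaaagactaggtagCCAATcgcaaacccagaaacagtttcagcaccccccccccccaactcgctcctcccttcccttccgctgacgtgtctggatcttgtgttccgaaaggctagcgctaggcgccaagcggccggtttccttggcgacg
Topbp1 carries the E2F-type letters TTTCGCGC on the opposite strand, 129 bases before the start. Rad54l carries CCAAT 50 bases and Brca1 86 bases before the start, and the letters searched for are not in the Mms22l window. Among the 30 members with a promoter in the table, 6 (20 percent) held an E2F-type match: Bard1, Brca2, Chek2, Fancg, Rad51c and Topbp1. The share was 2.6 percent of the 27025 genes in the table. A CCAAT box was found in 16 of the 30 (53.3 percent, against 41.1 percent of genes) and CHR letters in Bard1, Eme1 and Polq (10 percent, against 20.2 percent). The member windows held more G and C, with a median of 57.3 percent against 52.7 percent in all windows. Among the 6636 windows with a GC share within the members' quartiles, 3.63 percent held an E2F-type match, 38 percent CCAAT and 11 percent CHR. Of the 6 genes with an E2F-type match, Topbp1 and Brca2 were past the threshold and the other 4 were not. A match of letters is a description of the window and not a site shown to be bound.

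Among the genes that sense and trim broken ends, Blm and Exo1 were higher in MDP CD103 high cells. Blm, a helicase that helps trim ends and later untangles joined molecules, had 8.07, 8.07 and 7.98 in MDP CD103 high arrays, against 7.41, 6.90 and 7.12 in PBS CD103 high arrays. It had 6.80, 7.35 and 7.12 in MDP CD103 low arrays, against 7.40, 7.36, 7.34 and 7.48 in PBS CD103 low arrays. Only the MDP CD103 high arrays lay apart, with no overlap with any other group. The difference within the CD103 high gate was 0.90 ± 0.14 (adjusted p = 0.00676). Exo1, the exonuclease that extends the trimming, averaged 7.45 ± 0.02 in MDP CD103 high and 6.68 ± 0.36 in PBS CD103 high arrays (SD, n = 3 each) and was higher by 0.77 ± 0.16 (adjusted p = 0.0267). Rad50 and Nbn, which with MRE11 form the complex that first binds a break and recruits ATM, were further from the threshold. Rad50 differed by 0.43 ± 0.12 (adjusted p = 0.0871) and Nbn by 0.33 ± 0.11 (adjusted p = 0.182), and for both the MDP arrays lay above the PBS arrays of the gate.

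Of the checkpoint genes, which halt the cycle and steady forks when DNA is damaged, Topbp1, Chek1 and Atm were higher. Topbp1, the activator of the kinase ATR, had 10.22, 10.08 and 10.08 in MDP CD103 high arrays, against 9.58, 9.50 and 9.40 in PBS CD103 high arrays. In the CD103 low gate it had 9.67, 9.82 and 9.76 in MDP arrays, against 9.77, 9.74, 9.76 and 9.66 in PBS arrays. Its lowest MDP CD103 high array was above all other arrays, and the PBS CD103 high arrays were the lowest of all. The difference was 0.63 ± 0.08 (adjusted p = 0.00428) within the CD103 high gate. Chek1, the effector kinase downstream of ATR, averaged 7.76 ± 0.11 in MDP CD103 high and 6.84 ± 0.24 in PBS CD103 high arrays (SD, n = 3 each), a difference of 0.92 ± 0.18 (adjusted p = 0.0192). Atm, the kinase that answers double-strand breaks, was higher by 0.40 ± 0.08 (adjusted p = 0.029). Its target kinase Chek2 differed by 0.35 ± 0.13 (adjusted p = 0.26), with no overlap between the 3 arrays of each group. Atr itself (0.16 ± 0.10, adjusted p = 0.538) and its partner Atrip (0.05 ± 0.11, adjusted p = 0.906) had overlapping arrays.

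The BRCA group holds the proteins that prepare trimmed ends for strand invasion, and 3 of its 5 genes were higher. Brca1, which with BARD1 forms a ubiquitin ligase that favours recombination, had 7.13, 7.21 and 6.78 in MDP CD103 high arrays, against 6.18, 5.91 and 5.97 in PBS CD103 high arrays. Its levels in the CD103 low gate were 6.28, 6.13 and 6.07 in MDP arrays, against 6.10, 6.39, 6.26 and 5.91 in PBS arrays. The 3 other groups overlapped one another, and MDP CD103 high replicate 4 was the lowest of its group yet above all of them. The difference within the CD103 high gate was 1.03 ± 0.14 (adjusted p = 0.00491). Brca2, which acts at trimmed single strands, had 7.63, 7.63 and 7.57 in MDP CD103 high arrays, against 6.98, 6.66 and 6.61 in PBS CD103 high arrays. It had 6.71, 6.97 and 7.00 in MDP CD103 low arrays, against 6.89, 7.06, 7.01 and 6.44 in PBS CD103 low arrays. PBS CD103 low replicate 6 was the lowest array for this gene, and the MDP CD103 high arrays again overlapped with none. The difference was 0.86 ± 0.15 (adjusted p = 0.0128). Brip1, a helicase that binds BRCA1, averaged 7.86 ± 0.26 in MDP CD103 high and 6.64 ± 0.33 in PBS CD103 high arrays (SD, n = 3 each). Bard1 narrowly missed the threshold (0.67 ± 0.16, adjusted p = 0.0525). Palb2, the bridge between BRCA1 and BRCA2, differed by 0.39 ± 0.15 (adjusted p = 0.258), and its lowest MDP array touched the PBS arrays at 6.67.

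In strand exchange, Rad54l, Mms22l and Xrcc3 were higher in MDP CD103 high cells. Rad54l, a motor that helps strands pair, had 7.35, 7.37 and 7.30 in MDP CD103 high arrays, against 6.43, 6.28 and 6.35 in PBS CD103 high arrays. It had 6.33, 6.72 and 6.51 in MDP CD103 low arrays, against 6.80, 6.66, 6.61 and 6.29 in PBS CD103 low arrays. The MDP CD103 high arrays were close together and above the rest, and the difference within the gate was 0.98 ± 0.12 (adjusted p = 0.00428). Mms22l, which works with TONSL on recombination at stalled forks, had 8.65, 8.60 and 8.57 in MDP CD103 high arrays, against 7.98, 7.57 and 7.39 in PBS CD103 high arrays. Its levels in the CD103 low gate were 7.90, 7.98 and 7.84 in MDP arrays, against 7.90, 8.13, 7.98 and 7.94 in PBS arrays. Here the PBS CD103 high arrays spread downwards from the range of the CD103 low arrays, and the difference between treatments in the CD103 high gate was 0.96 ± 0.12 (adjusted p = 0.00468). Among the other strand exchange genes, Xrcc3 was higher (0.57 ± 0.08, adjusted p = 0.00553), while Rad51c differed by 0.41 ± 0.10 (adjusted p = 0.0694) and Rad51d by -0.02 ± 0.11 (adjusted p = 0.966). Rad51ap1, which helps strands pair, differed by 0.60 ± 0.15 (adjusted p = 0.0608), and its MDP arrays lay above the PBS arrays.

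The Fanconi core complex was the role group with the smallest share past the threshold among the groups of more than 3 genes. Only Fancm, the motor protein that anchors the core to blocked forks, was higher. Fancm had 6.67, 6.56 and 6.68 in MDP CD103 high arrays, against 5.78, 5.55 and 6.10 in PBS CD103 high arrays. It had 6.24, 6.24 and 6.11 in MDP CD103 low arrays, against 6.37, 6.24, 6.13 and 6.19 in PBS CD103 low arrays. The MDP CD103 high arrays were the highest and the PBS CD103 high arrays the lowest, with the CD103 low arrays of both treatments between them. The difference was 0.82 ± 0.12 (adjusted p = 0.0052). Fancl, the subunit that attaches ubiquitin, had 7.16, 7.16 and 7.17 in MDP CD103 high arrays, against 7.18, 7.05 and 7.16 in PBS CD103 high arrays. These overlapped, with a difference of 0.03 ± 0.09 (adjusted p = 0.915). The X-linked Fancb differed by 0.85 ± 0.23 (adjusted p = 0.0889), Fancg by 0.37 ± 0.10 (adjusted p = 0.109) and Fancc by 0.31 ± 0.11 (adjusted p = 0.219), each without overlap between the arrays. Fancf (0.13 ± 0.09) and Fance (0.03 ± 0.08) had overlapping arrays, with adjusted p = 0.584 and 0.917. Fance lay within 6.61 to 6.74 in MDP CD103 high and within 6.62 to 6.65 in PBS CD103 high arrays.

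Both targets of the core complex were higher. Fancd2 had 7.61, 7.60 and 7.32 in MDP CD103 high arrays, against 6.67, 6.31 and 6.24 in PBS CD103 high arrays. It had 6.59, 6.88 and 6.68 in MDP CD103 low arrays, against 6.80, 6.80, 6.65 and 6.71 in PBS CD103 low arrays. The CD103 low arrays of both treatments overlapped, and the lowest MDP CD103 high array stood well above all of them. Fanci, which clamps onto DNA together with FANCD2, averaged 6.88 ± 0.14 in MDP CD103 high and 5.98 ± 0.41 in PBS CD103 high arrays (SD, n = 3 each) and was higher by 0.90 ± 0.19 (adjusted p = 0.0315).

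Of the genes for lesion tolerance and end joining, Rad18 and Polq were both higher. Rad18, the ubiquitin ligase that marks PCNA at stalled forks, had 8.22, 8.22 and 8.17 in MDP CD103 high arrays, against 7.75, 7.51 and 7.54 in PBS CD103 high arrays. It had 7.31, 7.56 and 7.43 in MDP CD103 low arrays, against 7.73, 7.63, 7.70 and 7.50 in PBS CD103 low arrays. The difference in the CD103 high gate was 0.60 ± 0.09 (adjusted p = 0.00653), with MDP CD103 high above all other arrays. Polq, the polymerase theta that joins ends through short shared stretches, had 7.06, 7.03 and 6.80 in MDP CD103 high arrays, against 6.16, 5.93 and 5.61 in PBS CD103 high arrays. In the CD103 low gate it had 5.45, 6.28 and 5.99 in MDP arrays, against 6.29, 6.22, 6.19 and 6.08 in PBS arrays. MDP CD103 low replicate 1 was the lowest array for Polq, and the difference in the CD103 high gate was 1.07 ± 0.18 (adjusted p = 0.012).

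The nucleases were split. Eme1, the partner that makes MUS81 an active nuclease, had 5.86, 5.77 and 5.67 in MDP CD103 high arrays, against 5.39, 5.13 and 5.16 in PBS CD103 high arrays. It had 5.14, 4.92 and 5.00 in MDP CD103 low arrays, against 5.00, 5.22, 5.28 and 5.29 in PBS CD103 low arrays. Eme1 was higher within the CD103 high gate by 0.54 ± 0.10 (adjusted p = 0.0175), although its levels outside MDP CD103 high were close to the olfactory receptor mark of 5.12. Mus81 itself had 7.06, 7.13 and 7.17 in MDP CD103 high arrays, against 7.13, 7.14 and 7.14 in PBS CD103 high arrays, and differed by -0.02 ± 0.12 (adjusted p = 0.97). Slx4, the scaffold for these nucleases, differed by 0.11 ± 0.10 (adjusted p = 0.708), also with overlapping arrays.

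**Figure D2:**
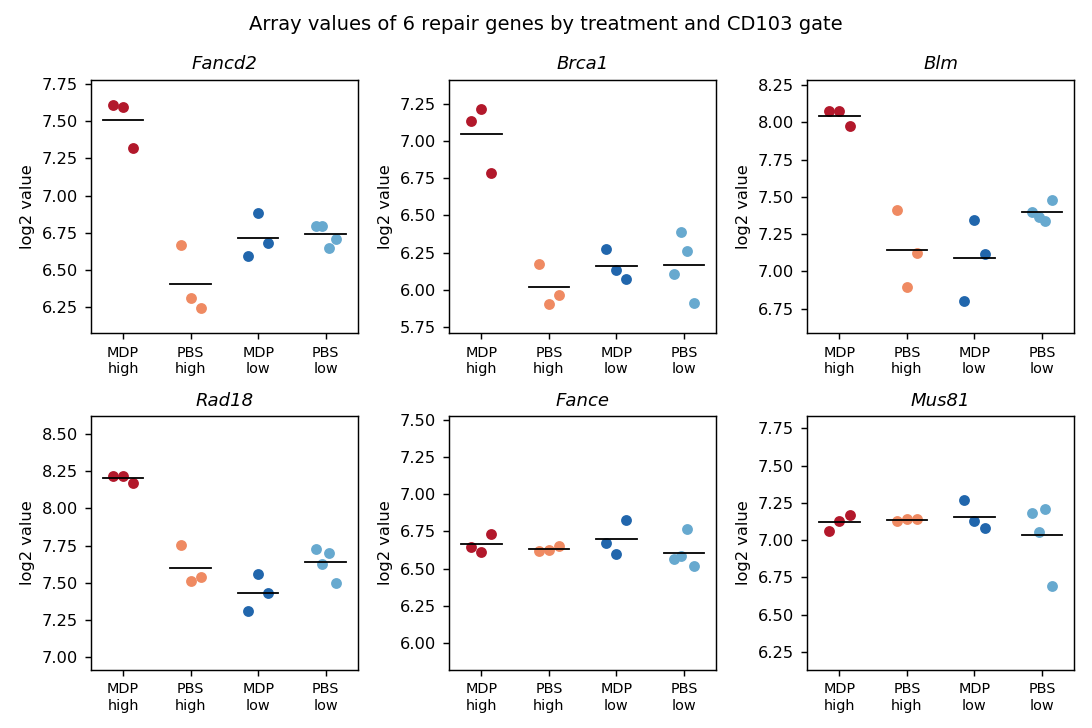
Log2 level in each array (points) and group mean (line) for Fancd2, Brca1, Blm and Rad18, which were higher in MDP CD103 high cells, and for Fance and Mus81, chosen after their values were seen because they were not. Each panel has its own axis, and all panels cover the same span of log2 units. The 3 MDP CD103 high points lie above all others in the first 4 panels and among them for Fance and Mus81.

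Within the CD103 low gate the same comparison gave no repair gene past the threshold in limma. The count was 0 of 35, against 0.00451 percent of all genes (1 gene, Itgae), with a smallest adjusted p of 0.803. An unadjusted p under 0.05 was found for 3 of the 35, beside 1343 of all 22180 genes. These 3 were Fancl (-0.20 ± 0.08), Blm (-0.31 ± 0.13) and Rad18 (-0.20 ± 0.09). Fancl had 6.84, 7.14 and 7.10 in MDP CD103 low arrays, against 7.19, 7.16, 7.33 and 7.23 in PBS CD103 low arrays, and was the 1 member whose MDP arrays lay wholly below the PBS arrays (2.52 percent of all genes). The median difference of the 35 was -0.02, from -0.31 to 0.17, with 14 above 0 (51.5 percent of all genes) and 21 below. In 0 of the 35 did the MDP arrays lie wholly above the PBS arrays (2.98 percent of all genes). Brca1 (-0.01 ± 0.13), Fancd2 (-0.02 ± 0.11) and Brca2 (0.04 ± 0.14) were near 0, while Polq had -0.29 ± 0.17 (adjusted p = 0.826). The count was also 0 in every alternative tried. MDP CD103 low replicate 1 and PBS CD103 low replicate 6 had the lowest mean over members in their groups, at 6.63 and 6.60.

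Whether MDP acted alike in the gates was tested as the difference between its effects. It was larger in CD103 high cells for 5 of the 35 repair genes, against 0.0721 percent of all genes (16 genes), and smaller for 0. These were Blm (1.21 ± 0.19), Fancd2 (1.12 ± 0.16), Rad54l (1.05 ± 0.17), Mms22l (1.04 ± 0.17) and Rad18 (0.80 ± 0.12), each with adjusted p = 0.0486, close to the threshold. For Blm, the MDP effect was 0.90 in CD103 high cells and -0.31 in CD103 low cells, and for Fancd2 it was 1.10 and -0.02. Topbp1 (0.61 ± 0.10, adjusted p = 0.0553), Brca1 (1.03 ± 0.19, adjusted p = 0.0682) and Polq (1.36 ± 0.25, adjusted p = 0.0704) came next. Over the 35 the median was 0.61, with 31 above 0 (47.3 percent of all genes), beside a median of -0.01 over all genes. With arrays of the same treatment and number as a random block, 9 members passed, Brca1 (adjusted p = 0.0361) and Polq (adjusted p = 0.0422) among them. The count was 0 with the number as a block across treatments, 0 with a term for sex-chromosome transcripts, and 0 without any 1 of 10 arrays. The exceptions were MDP CD103 low replicate 2 (5), PBS CD103 low replicate 6 (8) and PBS CD103 high replicate 4 (11). Over all genes the calls were 41 with the random block, and 0 with the block across treatments or the sex-chromosome term. They were 10, 41 and 107 without the exceptions, in that order. Without each of the other arrays they were 0, or 2 for MDP CD103 low replicate 1.

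**Figure D3:**
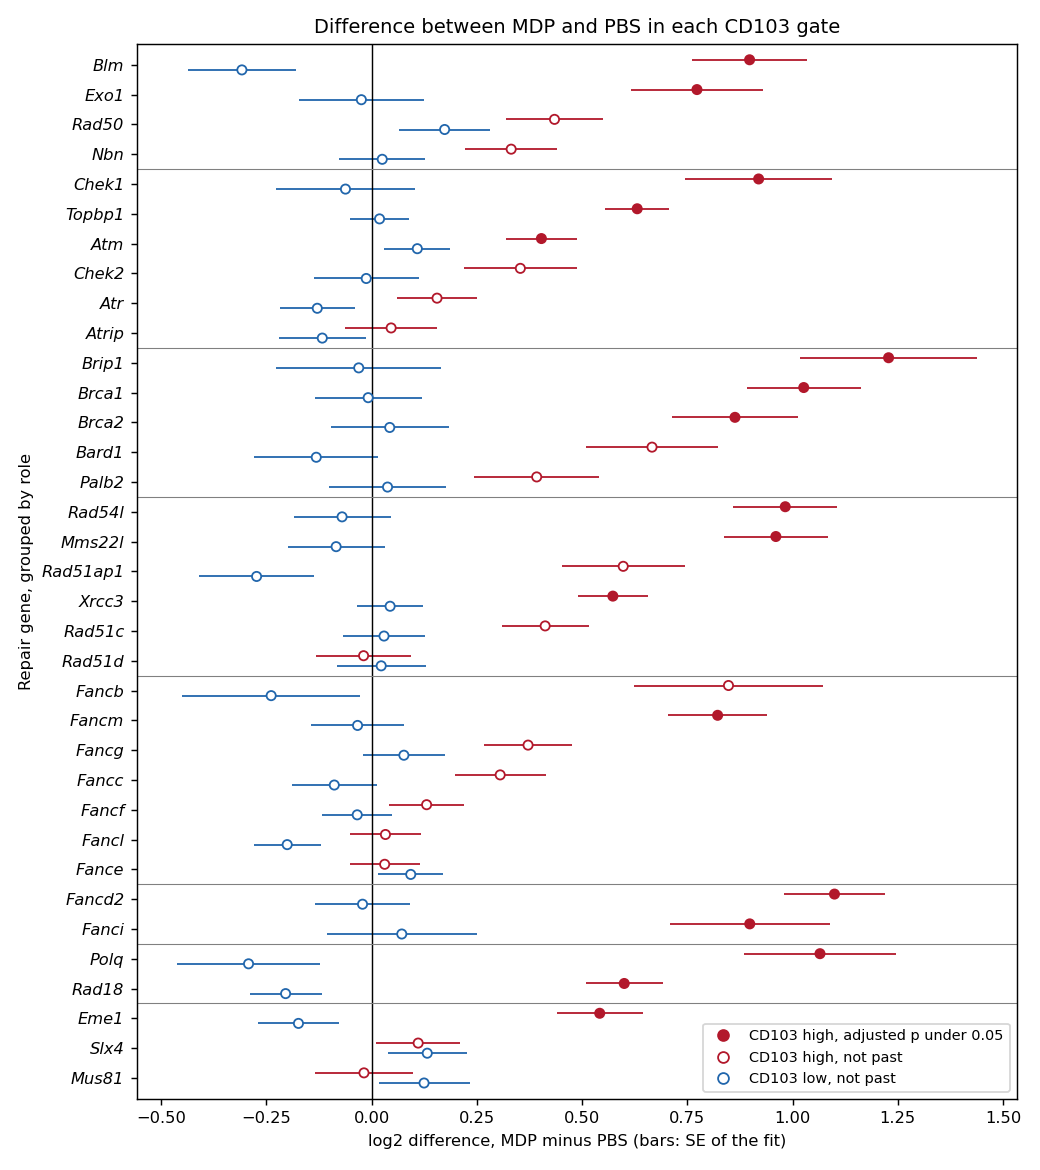
Log2 difference between MDP and PBS (x axis, bars are the SE of the fit) for each repair gene (rows, by role), in the CD103 high gate (red) and in the CD103 low gate (blue). Filled points have an adjusted p under 0.05. The 17 filled points all belong to the CD103 high gate, and the CD103 low points lie between -0.31 and 0.17.

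Between the gates of MDP mice, 8 of the 35 repair genes were higher in the CD103 high gate and 0 were lower, against 0.523 percent of all genes called (0.473 percent higher and 0.0496 percent lower). This comparison shares the MDP CD103 high arrays with the one between treatments, so a gene's values in both are not independent. Polq was higher by 1.06 ± 0.18 (adjusted p = 0.0247), Blm by 0.95 ± 0.14, Brca1 by 0.88 ± 0.14, Rad54l by 0.82 ± 0.12 and Fancd2 by 0.79 ± 0.12 (adjusted p = 0.018 for the last 4). Rad18 (0.77 ± 0.09, adjusted p = 0.0152) had the smallest p, followed by Eme1 (0.75 ± 0.10, adjusted p = 0.0168), and Mms22l was higher by 0.70 ± 0.12 (adjusted p = 0.0257). Brip1 (1.04 ± 0.21) and Topbp1 (0.37 ± 0.08) narrowly missed the threshold, both with adjusted p = 0.051, and no checkpoint or Fanconi core gene passed. Over the 35 the median was 0.43, from -0.04 to 1.06, with 33 above 0 (45.7 percent of all genes). In 26 the CD103 high arrays lay wholly above the CD103 low arrays (6.43 percent of all genes) and in 0 wholly below (7.93 percent). With arrays of the same treatment and number as a random block the count was 13 and included Brca2 (0.71, adjusted p = 0.0291), and with the number as a block across treatments it was 0. Over all genes, the random block called 190 and the block across treatments 0. Leaving out MDP CD103 high replicate 2 or replicate 3 brought the count of members to 0, MDP CD103 low replicate 1 to 2, and MDP CD103 low replicate 3 to 5, and a fit of these 6 arrays alone gave 0. Over all genes these settings called 0, 0, 16, 66 and 0, in that order. Within the pairs of the same number, the mean over members was higher in CD103 high cells by 0.43 (replicate 2) and 0.49 (replicate 3), and it differed by 0.45 within high-Xist arrays (2 against 1) and 0.50 within low-Xist arrays (1 against 2).

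Between the gates of PBS mice no repair gene passed the threshold in limma: 0 of 35, against 0.0766 percent of all genes (0.0451 percent higher and 0.0316 percent lower). An unadjusted p under 0.05 was found for 5 of the 35, beside 1889 of all 22180 genes. The 3 smallest p belonged to Fancm (-0.42 ± 0.11, adjusted p = 0.301), Topbp1 (-0.24 ± 0.07, adjusted p = 0.366) and Mms22l (-0.34 ± 0.11, adjusted p = 0.436). Here 8 of the 35 lay above 0 (48.9 percent of all genes) and 27 below, the median was -0.13 and the range was -0.42 to 0.10. In Fancm, Topbp1, Xrcc3 and Atr the CD103 high arrays lay wholly below the CD103 low arrays (4 of 35, against 4.05 percent of all genes), and in 0 of 35 wholly above (4.48 percent). The mean over members was lower in CD103 high cells by small amounts in both same-number pairs (-0.06 for replicate 4 and for replicate 6). The count was 0 in every alternative tried.

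Genes of the same pathways outside the list had a smaller median difference in the CD103 high gate. Of 54 further recombination and Fanconi genes measured, 15 were higher (1.42 percent of all genes) and 0 lower (0.397 percent) in MDP than in PBS CD103 high cells, with a median of 0.23 and 42 above 0. Rpa2, part of the complex that coats single strands (0.73 ± 0.09, adjusted p = 0.00428), Mre11a, the nuclease that works with RAD50 and NBN (0.57 ± 0.08, adjusted p = 0.00502), and Ube2t, the ubiquitin-conjugating enzyme of the Fanconi pathway (0.73 ± 0.11, adjusted p = 0.00639), had the smallest p. Between the gates of MDP mice, 4 of the 54 were higher on the CD103 high side (0.473 percent of all genes). Among them were Ube2t (0.66 ± 0.11, adjusted p = 0.0237), Rpa2 (0.53 ± 0.09, adjusted p = 0.0247) and Hrob, a helicase cofactor (0.88, adjusted p = 0.0257). None of the 54 passed in the CD103 low gate, where Wrn (0.25, adjusted p = 0.742) and Rad52 (0.24, adjusted p = 0.767) had the smallest p, or between the gates of PBS mice, where Mre11a (-0.29, adjusted p = 0.296) and Recql (-0.22, adjusted p = 0.36) did. Rpa2 was the 1 of 54 whose MDP effect differed between the gates (0.80 ± 0.12, adjusted p = 0.0486), against 0.0721 percent of all genes. Non-homologous end joining, the route that glues ends without a template and needs no sister chromatid, shifted less. Of 18 such genes, 2 were higher (1.42 percent of all genes) and 0 lower (0.397 percent) in MDP than in PBS CD103 high cells, with a median of 0.04. The 2 were Prkdc (0.35 ± 0.07, adjusted p = 0.0195) and Xrcc6 (0.42 ± 0.09, adjusted p = 0.0337), and 0 of the 18 passed in the other comparisons. The difference between the lists was not tested. All of the lists were chosen with earlier results of these data known, so their medians only describe the genes listed.

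Genes of S phase and mitosis moved with the repair genes. Of 30 measured, 23 were higher (1.42 percent of all genes) and 0 lower (0.397 percent) in MDP than in PBS CD103 high cells, with a median of 0.75 and 30 above 0. Cdc6, needed to license replication origins (1.27 ± 0.16, adjusted p = 0.00428), Uhrf1, which keeps DNA methylation through replication (0.91 ± 0.12, adjusted p = 0.00468), and Rrm1, a subunit of ribonucleotide reductase (1.01, adjusted p = 0.00842), had the smallest p. In MDP mice 7 of the 30 were higher in the CD103 high gate (0.473 percent of all genes), with a median of 0.62. In the CD103 low gate (median -0.03) and between the gates of PBS mice (median -0.17) 0 of 30 passed. For the difference of MDP effects between the gates 0 of 30 passed as well, with a median of 0.78 and 30 above 0. Per array, the mean of the 30 was 9.04, 9.08 and 8.97 in MDP CD103 high, against 8.54, 8.27 and 8.16 in PBS CD103 high. It was 8.21, 8.59 and 8.57 in MDP CD103 low, against 8.60, 8.57, 8.53 and 8.34 in PBS CD103 low. The arrays that were low for the repair genes in their group, MDP CD103 low replicate 1 and PBS CD103 low replicate 6, were also the lowest of their groups here. The part of cell division in the differences of the repair genes was not tested.

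**Figure D4:**
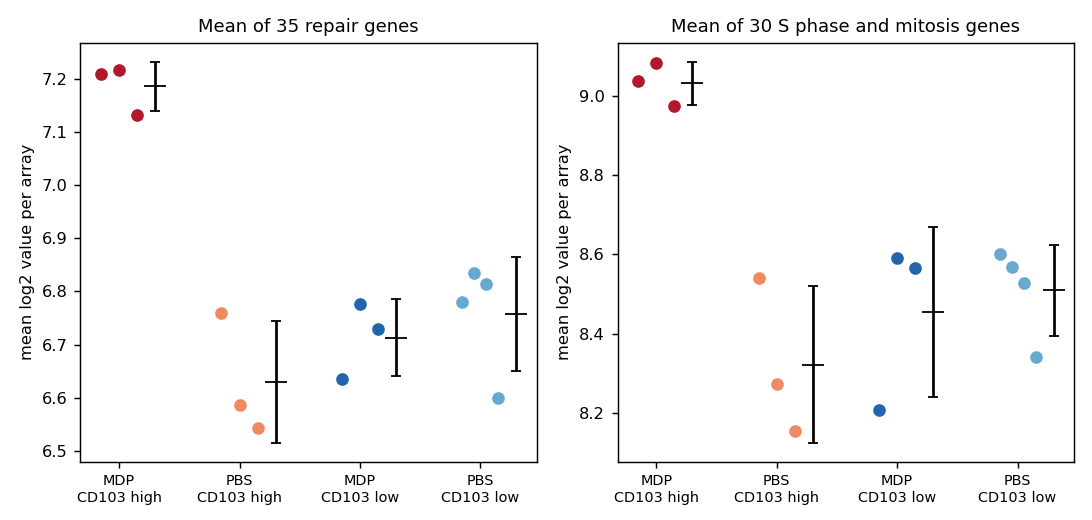
Mean log2 level per array (points) of the 35 repair genes (left) and of 30 genes of S phase and mitosis (right), by group, with the group mean and SD beside the points. In both panels the 3 MDP CD103 high arrays lie above the other 10. For the repair genes the group means are 7.19, 6.63, 6.71 and 6.76 from left to right.

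Markers of mature dendritic cells ran the other way. All 12 measured genes of the CCR7-type mature state, 11 of them above background, lay below 0 in MDP against PBS CD103 high cells. Their median was -0.92, from -2.24 to -0.09, and 46.3 percent of all genes lay above 0. Lower at the threshold were 3, against 0.397 percent of all genes. They were the chemokine receptor Ccr7 (-1.80 ± 0.35, adjusted p = 0.0195), the chemokine Ccl5 (-2.24 ± 0.47, adjusted p = 0.0311) as well as Relb, which encodes a transcription factor of the NF-kB family (-1.07 ± 0.24, adjusted p = 0.0413). The summed level of the 12 was 77.7 to 82.0 in MDP CD103 high arrays, against 88.9 to 93.4 in PBS CD103 high arrays. It was 88.1 to 102.7 in MDP CD103 low arrays, against 86.5 to 89.95 in PBS CD103 low arrays, with the highest value in MDP CD103 low replicate 1. Ccr7 averaged 7.50 ± 0.32 in MDP CD103 high and 9.30 ± 0.27 in PBS CD103 high arrays (SD, n = 3 each). The actin bundler Fscn1 averaged 5.78 ± 0.29 in MDP CD103 high and 6.90 ± 0.37 in PBS CD103 high arrays, and did not pass (adjusted p = 0.231 in limma). The chemokine Ccl22 averaged 5.92 ± 0.02 in MDP CD103 high and 6.94 ± 0.39 in PBS CD103 high arrays, and did not pass either (adjusted p = 0.13 in limma). Between the gates of MDP mice all 12 lay below 0 as well, with a median of -0.78, while 45.7 percent of all genes lay above 0. Ccl5, Ccr7 and Cd63 were lower at the threshold (3 of 12, against 0.0496 percent of all genes). The cDC1 markers summed to 140.5 to 141.2 in MDP CD103 high arrays and 139.8 to 140.7 in PBS CD103 high arrays, although Itgae itself was higher after MDP. Of the plasmacytoid markers, 2 of 8 (Cd300c and Pacsin1), against 0.397 percent of all genes, were lower in MDP than in PBS CD103 high cells. The list summed there to 51.9 to 52.6 and 54.0 to 54.6. The part of these cell states in the differences of the repair genes was not tested.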

How the data were processed

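The deposited values are log2 probe set levels. RMA and Affymetrix Expression Console were used to make them, per the submitters' processing notes. The sources used here give neither versions nor the genome build behind the probe sets. RMA corrects background and makes the distributions of the arrays alike, so a shift shared by most genes would be removed. Per the labels, RNA was pre-amplified and only samples of sufficient RNA quality were hybridised.

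Of 41345 probe sets, 23521 carried 1 symbol, 1814 several and 16010 none in the platform annotation. The 23521 gave 22180 genes, with the highest-mean probe set for the 1082 genes that had several, and the RefSeq gene table held 21994 of them. Pearson correlations between arrays were 0.976 to 0.991 over all 41345 probe sets, and 0 pairs were identical.

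The fit used limma 3.58.1 under R 4.3.3, with all 13 arrays, 1 mean per group, contrasts.fit and eBayes (9 residual and 3.86 prior degrees of freedom). Tests were two-sided, with Benjamini-Hochberg adjustment over all genes of a contrast and a threshold of 0.05. The fit was checked on simulated data. Tables and figures were made with Python 3.11.15, pandas 2.3.3, numpy 2.4.6 and matplotlib 3.10.9. The number of arrays limits the precision, with a median SE over members of 0.11 to 0.16.

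The members, role groups and other lists were chosen with earlier results of these data known, so no p-value is given for a list. Values in every array are given for the member with the smallest p of each role group, for the 3 with the smallest p in each contrast, and for Brca1, Brca2, Fancd2 and Polq. From the other pathway lists up to 3 genes past the threshold are given, otherwise the 2 smallest p, and from marker lists counts and summed levels, with single defining genes only where a list is described. Marker genes named as past the threshold beyond these were chosen after their values were seen. Promoters were searched for letters on both strands, and 30 of 35 members had 1 or more windows in the table.

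Replicate numbers recur across groups with no stated meaning. Deviations from the group mean of same-numbered arrays correlated at 0.20 to 0.37 in all 4 pairs within a treatment, which also matched in sex-chromosome transcripts, and at -0.24 to 0.45 in 5 pairs across treatments. The 0.45, the highest of all, was between replicate 4 of PBS CD103 low and replicate 4 of MDP CD103 high. In 54 pairs of unequal numbers the correlations were -0.46 to 0.29. The main fit used no pairing and took all arrays as independent. For the pairs of the same number and for the random block, the numbers were taken to pair arrays within a treatment only. The check of correlations does not settle a pairing across treatments. Alternatives were each array left out, replicate number as a block, the arrays of the groups alone, a variance trend with robust fit, the mean of probe sets, a filter on low values, centred arrays, array weights and a sex-chromosome term. A random block within treatment and the joint removal of MDP CD103 low replicate 1 and PBS CD103 low replicate 6 were added after seeing the data.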

Additional observations from a re-analysis of the deposited data

Results flagged for a closer look

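In the group of 4 PBS CD103 low arrays, replicates stood apart for 3 members by a gap above Dixon's critical value. Fancf was 6.75 in replicate 3, against 6.88 to 6.90 in the other 3 arrays. Rad50 was 7.34 in replicate 6, against 7.77 to 7.79 in the others, and Chek2 was 5.46 in replicate 6, against 5.87 to 5.93. Chance gives about 1 such gap in 20 groups, and 36 groups of values were examined.

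The effect of MDP differed between the gates for Blm (1.21), Fancd2 (1.12), Rad54l (1.05), Mms22l (1.04) and Rad18 (0.80), tested as an interaction in limma with adjusted p = 0.0486 each. All 5 effects were positive in CD103 high cells, from 0.60 for Rad18 to 1.10 for Fancd2, and negative in CD103 low cells, from -0.31 for Blm to -0.02 for Fancd2. The effect of Fancd2 in CD103 low cells was 0.04 without MDP CD103 low replicate 1.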

How the results depend on the processing

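For MDP against PBS in CD103 high cells, 17 members passed, and 9 to 20 did when each array was left out in turn (82 to 594 over all genes). Of the 17, Blm, Brca1, Fancd2, Fancm, Mms22l, Rad18, Rad54l, Topbp1 and Xrcc3 lost their call in 1 of 23 alternatives, the replicate block. Under it 0 members and 0 of all 22180 genes passed in this and the other 4 comparisons. That block takes equal numbers across treatments as pairs, which the check of the numbers did not settle, and brought the difference of the mean over members to 0.39. Between the gates of MDP mice the count was 8, and 0 to 11 with an array left out (0 to 140 over all genes). It was 0 with only the arrays of these groups, 4 without both arrays of low levels, 13 with a variance trend or with the random replicate block within treatment, and 14 with the filter on low values. Over all genes these settings called 0, 17, 192, 190 and 228, in that order, the last among the 11716 genes that the filter kept. For the difference of MDP effects the count was 5, and 0 to 11 with an array left out (0 to 107 over all genes). It was 0 with the sex-chromosome term, 1 without both arrays of low levels, 9 with array weights or with the random replicate block, 10 with a variance trend and 11 with the filter. Over all genes these settings called 0, 3, 35, 41, 116 and 134, in that order, the last again among the 11716 genes kept. The other counts of members, of 0, stayed at 0. None of the 8 or the 5 calls was kept in all alternatives. The differences of the mean over members kept their sign, at 0.51 to 0.62, -0.10 to -0.0044, 0.43 to 0.50, -0.19 to -0.08 and 0.56 to 0.66 with an array left out. Over all alternatives the genes called numbered 0 to 699 (403 in the report), 0 to 2 (1), 0 to 228 (116), 0 to 25 (17) and 0 to 134 (16). The 699, 228 and 134 came from the filter, which tested 11716 genes. The sign turned in 13 cases of 5 small values, none past the threshold. In CD103 low cells, MDP against PBS ranged with an array left out from -0.103 to 0.0413 for Fancd2, from -0.0928 to 0.0667 for Brca1 and from -0.0925 to 0.1335 for Brca2. Without both arrays of low levels Fancd2 was 0.031 and Brca2 -0.0023, with centred arrays Brca1 was 0.0037, and with the replicate block Brca2 was -0.1058. Between the gates of PBS mice the replicate block gave 0.0472 for Brca1 and 0.0569 for Brca2. Apart from the constructions named, the cause of these changes was not tested. Signal over background limits Eme1 and Bard1, whose levels lay near the olfactory receptor mark in some groups. It also limits Fancb, whose mean was below the mark in every group except MDP CD103 high.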
